A study of Mus musculus with 27 samples.

Results

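The circadian clock genes described here were the 10 rows of the gene count table named Per1, Per2, Per3, Cry1, Cry2, Nr1d1, Nr1d2, Dbp, Arntl and Clock, of 29872 genes in all. They were taken by name and followed across 27 RNA-seq libraries in 8 groups of mouse bone marrow-derived macrophages, which are macrophages grown from marrow precursors. Marrow of male mice aged 8 to 10 weeks was cultured for 5 days with 20% serum and 10% L-cell conditioned medium, a source of the growth factor M-CSF. The cells were then treated for 24 h. The knockout groups carried LysM-Cre+/+; GRIP1fl/fl, in which Cre made in myeloid cells deletes floxed Ncoa2, the gene of the glucocorticoid receptor coregulator GRIP1. The knockout (KO) groups received 10 ng/ml IL4 (3 libraries), 500 nM corticosterone (4), 100 nM dexamethasone (4) or vehicle (4). The wild-type (WT) groups received the same IL4, corticosterone, dexamethasone or vehicle (3 libraries each). The titles call the WT mice BL6, whereas their genotype field reads C57BL/6, LysM-Cre+/+ ; GRIP1wt/wt, so it is not settled whether the controls carried Cre. Nothing in the labels says that the libraries of a group came from separate animals, so the p-values measure only how far these libraries spread, and that spread may be technical.

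In mammals, the transcription factors CLOCK and BMAL1 (encoded by Arntl) pair on E-box sequences and switch on the Per and Cry genes, whose proteins then repress that pair. REV-ERB alpha and beta, encoded by Nr1d1 and Nr1d2, repress Arntl through ROR elements, and DBP activates genes through D-boxes. Macrophages hold such a clock, and glucocorticoids are known to induce Per1 directly and to set the phase of clocks in peripheral cells. All libraries here were made at 1 time after treatment, so a change in the level of a gene and a shift in the timing of a rhythm cannot be told apart.

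Windows of 300 bases around annotated starts (250 before the start and 50 from it) were read from RefSeq on GRCm38.p6, and 9 of the 10 genes were matched, with 13 windows. They were searched on both strands for the clock motifs above and for a glucocorticoid response element. The 3 windows shown belong to a gene that rose with glucocorticoid, a gene that fell and a second that rose. Capitals mark the motif found. Each clock motif was searched only in the exact spelling given below, so other spellings of it stay in lower case.
Per1, chr11:69098699-69098998, plus strand, E-box in capitals: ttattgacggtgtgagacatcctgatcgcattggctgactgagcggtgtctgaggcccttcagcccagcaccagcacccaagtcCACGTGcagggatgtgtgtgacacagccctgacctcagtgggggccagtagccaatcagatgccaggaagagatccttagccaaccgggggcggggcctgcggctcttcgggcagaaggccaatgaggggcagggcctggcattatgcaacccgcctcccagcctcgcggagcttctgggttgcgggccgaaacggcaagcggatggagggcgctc
Per3, chr4:151044616-151044915, minus strand, D-boxes in capitals: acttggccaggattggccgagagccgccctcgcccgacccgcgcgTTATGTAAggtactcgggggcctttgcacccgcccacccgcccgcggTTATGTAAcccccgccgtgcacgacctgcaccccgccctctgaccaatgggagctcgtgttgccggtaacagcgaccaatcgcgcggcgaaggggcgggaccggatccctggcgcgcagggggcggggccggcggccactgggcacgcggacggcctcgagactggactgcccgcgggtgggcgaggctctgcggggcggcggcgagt
Arntl, chr7:113207261-113207560, plus strand, ROR element core in capitals: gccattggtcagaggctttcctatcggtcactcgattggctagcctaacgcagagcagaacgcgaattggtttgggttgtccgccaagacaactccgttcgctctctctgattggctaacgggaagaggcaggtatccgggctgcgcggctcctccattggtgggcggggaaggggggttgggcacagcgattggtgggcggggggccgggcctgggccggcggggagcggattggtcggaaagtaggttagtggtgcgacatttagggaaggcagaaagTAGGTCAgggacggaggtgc
The E-box CACGTG was present in 7.15% of 32851 RefSeq windows of the same length, and in 1 window each of Per1 and Cry1. The D-box TTATGTAA was present in 0.938% of all windows, and Per3 held 2 copies. The ROR element core TAGGTCA was present in 2.61% of all windows, and here in 1 window of Arntl. The palindromic glucocorticoid response element consensus was present in 0.475% of all windows and in 0 of the 13 clock gene windows. These matches describe letters in short windows and say nothing about binding.

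Total counts ran from 20162729 to 48023102 per library. Levels are given as CPM, the count of a gene relative to the TMM-scaled library size. Ncoa2 lay between 16.1 and 26.0 CPM in the KO libraries and between 55.7 and 93.4 CPM in the WT libraries, so each library fitted its genotype label, although counts over the whole gene do not show how complete the deletion was. The 8 macrophage markers summed to between 5480 and 6880 CPM in every library. Summed markers of stromal cells (6 of 6 genes detected) ran from 14.5 to 61.5 CPM in KO libraries and from 196 to 1000 CPM in WT libraries. Summed neutrophil markers (8 genes) ran from 6.18 to 17.0 CPM in KO libraries and from 49.1 to 348 CPM in WT libraries. In 4 libraries not given IL4 (KO vehicle 2 and 3, KO dexamethasone 2 and WT dexamethasone 1), Arg1, a gene that IL4 induces, stood at 67.1 to 117 CPM, against 12.2 CPM or less in the other libraries without IL4. Calls on the clock genes that change without these 4 libraries are given with and without them.

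All 10 clock genes were detected and passed the filter on low counts in the whole set of 27 libraries. The lowest count was 38 for Per3, 51 for Per2, 72 for Dbp and 77 for Nr1d1, whereas Clock had at least 1156 counts in every library, so the first 4 were measured less precisely. Per kilobase of annotated exon, the level in KO vehicle cells ran from 6.00 ± 0.511 CPM per kb for Cry1 (SD, n = 4) to 0.446 CPM per kb for Per3. In WT vehicle cells it ran from 6.07 ± 0.776 CPM per kb for Nr1d2 (SD, n = 3) to 0.438 CPM per kb for Per3. Cry1, Nr1d2, Per1 and Clock were the 4 highest by mean level per kb in both genotypes. Reads of Dbp can be shared with Sphk2, which overlaps 18.0% of its exon length on the other strand, and those of Nr1d1 with Thra, which overlaps 8.55%. Whether the counting used strand was not stated in the labels, so both values are less certain.

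**Figure D1:**
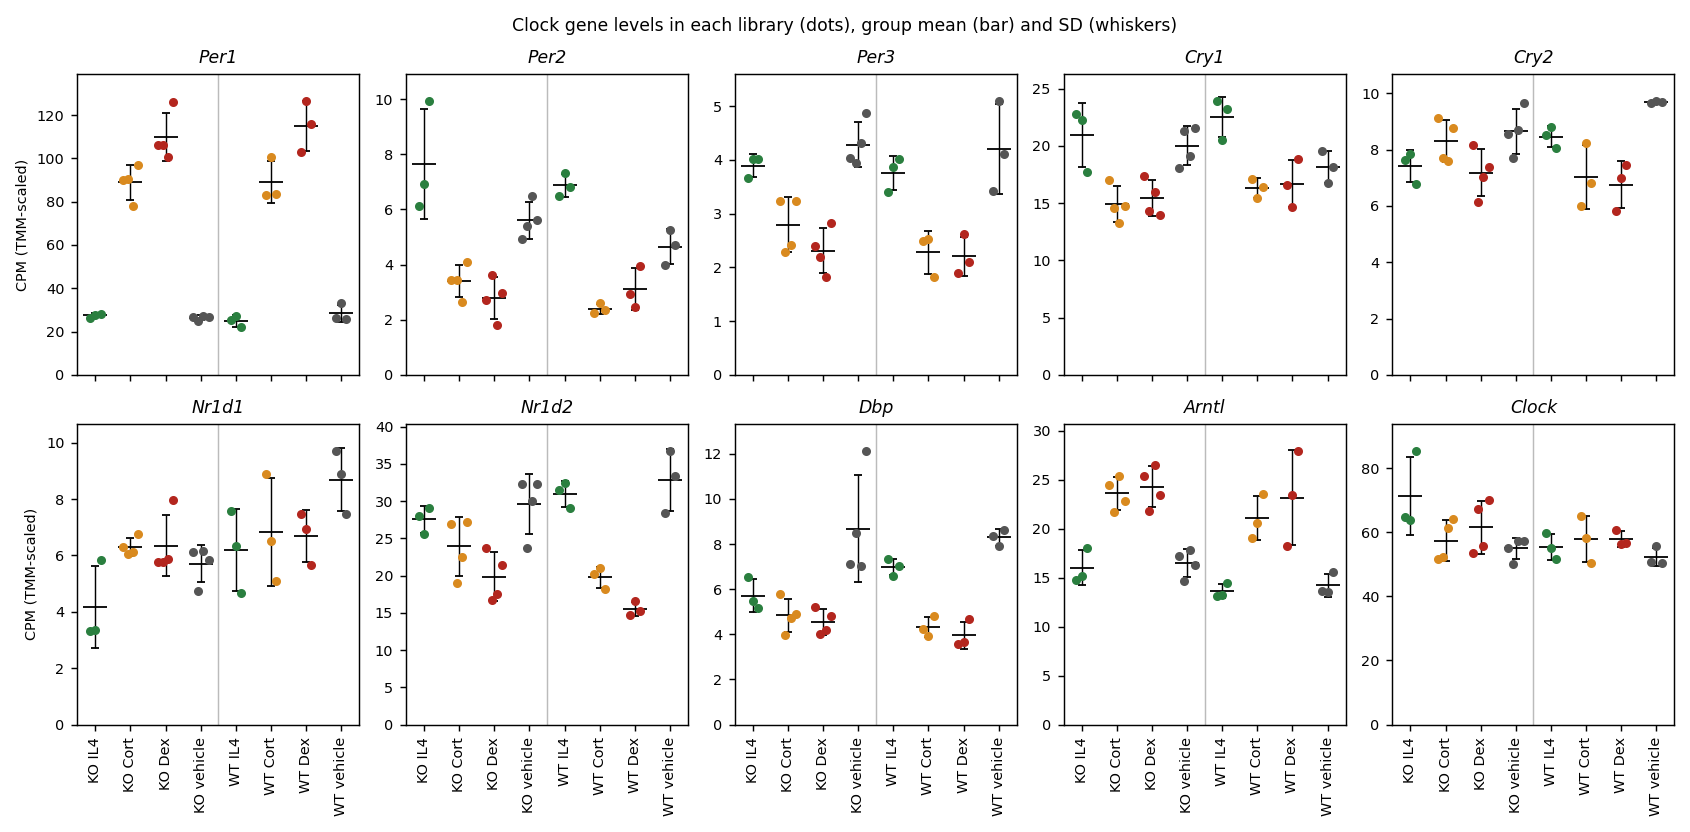
Level of each clock gene (y axis, CPM of the TMM-scaled library) in each of the 27 libraries (dots), by group (x axis; KO left, WT right). Bars and whiskers are the group mean and SD. Per1 lies between 77.8 and 126 CPM in every glucocorticoid library and at 32.9 CPM or less in all others.

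Glucocorticoids, which act through the glucocorticoid receptor, gave the clearest pattern. Per1 and Arntl rose, while Per3 and Dbp fell, with both steroids and in both genotypes. Per2 fell in 3 of the 4 comparisons, Nr1d2 in 3, and Cry1 and Cry2 in 2 each. Nr1d1 and Clock passed the test in none of the 4. All fold changes, standard errors and adjusted p-values come from edgeR's quasi-likelihood test over 14589 genes with Benjamini-Hochberg adjustment, and "called" means that the adjusted p was under 0.05. With corticosterone, 6 of 10 clock genes were called in KO cells (2 higher, 4 lower), against 12.1% of all genes tested (6.01% higher, 6.07% lower). In WT cells 7 were called with corticosterone (2 higher, 5 lower), against 5.94% of all genes (3.48% higher, 2.46% lower). With dexamethasone, 7 were called in KO cells (2 higher, 5 lower), against 18.4% of all genes (9.1% higher, 9.29% lower). In WT cells 6 were called with dexamethasone (2 higher, 4 lower), against 13.7% of all genes (7.66% higher, 6.03% lower). The steroid and vehicle libraries did not overlap for 6 clock genes with corticosterone in KO cells (17.3% of all genes) and 7 in WT cells (24.5%), and for 6 with dexamethasone in KO cells (19.8%) and 9 in WT cells (29.9%). The median absolute log2 fold change of the clock genes was 0.47 in KO and 0.65 in WT cells with corticosterone, against 0.13 and 0.12 over all genes in KO and WT cells. With dexamethasone it was 0.57 in KO and 0.64 in WT cells, against 0.16 over all genes in each. The 2 steroid comparisons of a genotype share its vehicle libraries, so they are not independent of each other.

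**Figure D2:**
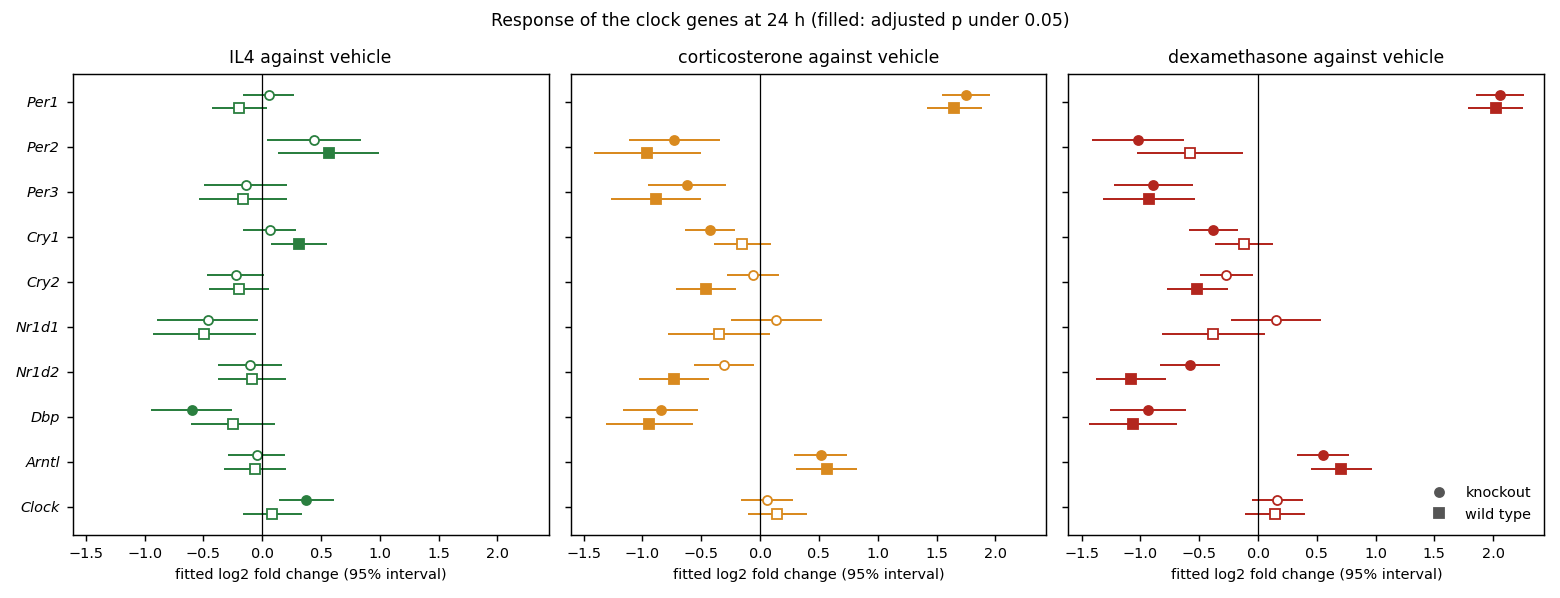
Fitted log2 fold change against vehicle (x axis; positive means higher with treatment) of each clock gene (y axis) for IL4, corticosterone and dexamethasone in KO (circles, above) and WT cells (squares). Lines are 95% intervals and filled symbols passed the test. Per1 stands apart at 1.65 to 2.06 with glucocorticoid.

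Per1 encodes a repressor of the CLOCK and BMAL1 pair and is a known direct target of the glucocorticoid receptor. The gene lies on chromosome 11 (69095217 to 69109960, plus strand, GRCm38). In KO cells it stood at 90.2, 90.6, 77.8 and 96.9 CPM with corticosterone, and at 106, 106, 101 and 126 CPM with dexamethasone, against 26.6, 24.9, 27.3 and 26.7 CPM with vehicle. The WT libraries stood at 83.0, 100.5 and 83.7 CPM with corticosterone, and at 103, 126 and 116 CPM with dexamethasone, against 26.4, 32.9 and 25.7 CPM with vehicle. Every steroid library was at least 2 times the highest vehicle library of its genotype, and no groups overlapped. The log2 fold change with corticosterone was 1.75 ± 0.094 in KO cells (adjusted p = 4.12e-12) and 1.65 ± 0.108 in WT cells (adjusted p = 2.24e-10). With dexamethasone it was 2.06 ± 0.095 in KO cells (adjusted p = 9.61e-14) and 2.02 ± 0.109 in WT cells (adjusted p = 2.6e-12). In these bulk samples, fewer cells of a type and less RNA per cell cannot be told apart, here and below.

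Per2 and Per3 encode the other period proteins, and both moved against Per1. Per2 lies on chromosome 1 (91415982 to 91459324, minus strand) and Per3 on chromosome 4 (151003652 to 151044665, minus strand). In KO cells, Per2 stood at 3.46, 3.43, 2.64 and 4.09 CPM with corticosterone and at 2.72, 3.62, 1.82 and 2.98 CPM with dexamethasone, against 4.92, 5.41, 6.51 and 5.61 CPM with vehicle. For WT cells the values were 2.23, 2.59 and 2.33 CPM with corticosterone and at 2.94, 2.46 and 3.95 CPM with dexamethasone, against 3.98, 5.24 and 4.71 CPM with vehicle. All steroid libraries lay below all vehicle libraries of their genotype, with WT dexamethasone 3 just under WT vehicle 1. Per2 fell with corticosterone by 0.73 ± 0.182 on the log2 scale in KO cells (adjusted p = 0.00859) and by 0.96 ± 0.216 in WT cells (adjusted p = 0.00681). With dexamethasone the log2 fold change was -1.02 ± 0.185 in KO cells (adjusted p = 0.000292). The WT dexamethasone value, -0.57 ± 0.214, missed the threshold (adjusted p = 0.0813). It passed without WT dexamethasone 3 (-0.80, adjusted p = 0.0343) and with the library number as a block (-0.58, adjusted p = 0.0382). Without the 4 libraries high in Arg1, the KO corticosterone value was -0.65 (adjusted p = 0.0834).

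Per3 was the lowest of the clock genes per kb. Its KO libraries stood at 3.23, 2.29, 2.42 and 3.23 CPM with corticosterone and at 2.40, 2.19, 1.82 and 2.83 CPM with dexamethasone, against 4.03, 3.93, 4.31 and 4.86 CPM with vehicle. Its WT libraries stood at 2.50, 2.53 and 1.82 CPM with corticosterone and at 1.89, 2.61 and 2.11 CPM with dexamethasone, against 3.43, 5.09 and 4.10 CPM with vehicle. No steroid library reached any vehicle library. The log2 fold change with corticosterone was -0.62 ± 0.156 in KO cells (adjusted p = 0.00868) and -0.89 ± 0.182 in WT cells (adjusted p = 0.00315). With dexamethasone it was -0.89 ± 0.158 in KO cells (adjusted p = 0.00022) and -0.93 ± 0.184 in WT cells (adjusted p = 0.000964). Fitted on the WT corticosterone and vehicle libraries alone, the corticosterone value was -0.89 with an adjusted p of 0.0567.

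Cry1 and Cry2 encode cryptochromes, which act with the period proteins as repressors. Cry1 lies on chromosome 10 (85131700 to 85185064, minus strand) and Cry2 on chromosome 2 (92403646 to 92434043, minus strand). In KO cells, Cry1 stood at 17.1, 14.6, 13.3 and 14.8 CPM with corticosterone and at 17.4, 14.3, 16.0 and 14.0 CPM with dexamethasone, against 18.1, 21.3, 19.2 and 21.6 CPM with vehicle, with no overlap. The log2 fold changes were -0.43 ± 0.098 with corticosterone (adjusted p = 0.00467) and -0.38 ± 0.098 with dexamethasone (adjusted p = 0.00762), and without the 4 libraries high in Arg1 the dexamethasone value was -0.34 (adjusted p = 0.112). In WT cells the steroid and vehicle libraries of Cry1 overlapped, and the values were -0.15 (95% interval -0.39 to 0.08) with corticosterone and -0.12 (-0.35 to 0.12) with dexamethasone. The genotypes were not shown to differ, since the difference of the corticosterone responses, KO minus WT, was -0.27 ± 0.15 with an adjusted p of 0.908.

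Cry2 was called with the steroids in WT cells and not in KO cells, although the genotypes were not shown to differ. In WT cells it stood at 6.01, 8.25 and 6.83 CPM with corticosterone and at 5.82, 6.99 and 7.46 CPM with dexamethasone, against 9.66, 9.71 and 9.70 CPM with vehicle. The steroid libraries all lay below the vehicle libraries, which lay close together (SD of 0.0271 CPM). The log2 fold changes were -0.46 ± 0.12 with corticosterone (adjusted p = 0.0206) and -0.52 ± 0.122 with dexamethasone (adjusted p = 0.00456). The corticosterone call was lost without WT corticosterone 1 or 3 or without any 1 of the 3 WT vehicle libraries (adjusted p of 0.0556 to 0.13), without the filter on low counts (adjusted p = 0.0588) and when only the 2 groups compared were fitted (adjusted p = 0.0861). Without all 4 WT libraries numbered 1, which hold the most stromal transcripts, the values were -0.36 with corticosterone (adjusted p = 0.205) and -0.43 with dexamethasone (adjusted p = 0.0592). In KO cells the values were -0.06 (95% interval -0.28 to 0.15) with corticosterone and -0.27 ± 0.105 with dexamethasone (adjusted p = 0.0783). The dexamethasone value passed without KO dexamethasone 1 (-0.34, adjusted p = 0.0424) or KO vehicle 2 (-0.32, adjusted p = 0.049). The difference of the Cry2 responses, KO minus WT, was not called with either steroid. It was 0.40 with corticosterone (95% interval 0.071 to 0.728, adjusted p = 0.547) and 0.25 with dexamethasone (-0.085 to 0.578).

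Nr1d2 and Nr1d1 encode the REV-ERB repressors, nuclear receptors that bind haem. Nr1d2 lies on chromosome 14 (18204054 to 18239127, minus strand) and Nr1d1 on chromosome 11 (98767932 to 98775333, minus strand). Nr1d2 in WT cells stood at 20.2, 20.9 and 18.2 CPM with corticosterone and at 14.7, 16.6 and 15.3 CPM with dexamethasone, against 28.4, 36.7 and 33.3 CPM with vehicle. In KO cells it stood at 26.97, 19.0, 22.5 and 27.2 CPM with corticosterone and at 23.7, 16.7, 17.5 and 21.4 CPM with dexamethasone, against 32.3, 23.7, 30.0 and 32.2 CPM with vehicle. The WT groups did not overlap, whereas in KO cells the vehicle library numbered 2 lay within the corticosterone range and at the edge of the dexamethasone range. In WT cells Nr1d2 fell by 0.73 ± 0.138 on the log2 scale with corticosterone (adjusted p = 0.00134) and by 1.08 ± 0.141 with dexamethasone (adjusted p = 5.6e-06). In KO cells it fell by 0.58 ± 0.12 with dexamethasone (adjusted p = 0.0011), and the corticosterone value of -0.31 ± 0.119 missed the threshold (adjusted p = 0.0999). That value passed with the library number as a block (-0.31, adjusted p = 0.00254), without KO vehicle 2 (-0.41, adjusted p = 0.0299) and without the 4 libraries high in Arg1 (-0.45, adjusted p = 0.0414).

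Nr1d1 passed the test with neither steroid in either genotype. Its KO libraries stood at 6.31, 6.04, 6.10 and 6.75 CPM with corticosterone and at 5.77, 5.77, 5.88 and 7.96 CPM with dexamethasone, against 6.12, 4.75, 6.15 and 5.83 CPM with vehicle. Its WT libraries stood at 8.89, 6.53 and 5.08 CPM with corticosterone and at 7.47, 6.95 and 5.65 CPM with dexamethasone, against 9.70, 8.89 and 7.48 CPM with vehicle. The KO groups overlapped. In WT cells every dexamethasone library lay below every vehicle library, as for Nr1d2, while the corticosterone libraries overlapped those with vehicle. The log2 fold change was 0.14 (95% interval -0.24 to 0.52) with corticosterone and 0.15 (-0.22 to 0.53) with dexamethasone in KO cells. In WT cells it was -0.35 (-0.78 to 0.08) with corticosterone and -0.38 (-0.81 to 0.05) with dexamethasone, and with the library number as a block the dexamethasone value was -0.38 with an adjusted p of 0.034.

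Dbp encodes a PAR bZIP activator that is a well-known output of the CLOCK and BMAL1 pair, and it lies on chromosome 7 (45705088 to 45710203, plus strand). In KO cells it stood at 5.77, 3.96, 4.73 and 4.88 CPM with corticosterone and at 5.22, 4.003, 4.17 and 4.79 CPM with dexamethasone, against 7.13, 8.48, 7.03 and 12.1 CPM with vehicle. Its WT libraries stood at 4.24, 3.93 and 4.81 CPM with corticosterone and at 3.58, 3.64 and 4.66 CPM with dexamethasone, against 8.35, 7.91 and 8.64 CPM with vehicle. No steroid library overlapped with vehicle in either genotype, and KO vehicle 4 stood above the other vehicle libraries. The log2 fold change with corticosterone was -0.84 ± 0.149 in KO cells (adjusted p = 0.000368) and -0.94 ± 0.173 in WT cells (adjusted p = 0.00108). With dexamethasone it was -0.94 ± 0.15 in KO cells (adjusted p = 7e-05) and -1.06 ± 0.176 in WT cells (adjusted p = 0.000127).

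Arntl and Clock encode the activating pair. Arntl lies on chromosome 7 (113207465 to 113314126, plus strand) and Clock on chromosome 5 (76209868 to 76304792, minus strand). Arntl stood at 24.5, 21.8, 25.4 and 22.8 CPM with corticosterone and at 25.4, 21.8, 26.5 and 23.4 CPM with dexamethasone in KO cells, against 17.3, 14.7, 17.9 and 16.3 CPM with vehicle. The WT libraries were at 19.1, 20.6 and 23.6 CPM with corticosterone and at 18.2, 23.4 and 27.9 CPM with dexamethasone, against 13.6, 13.5 and 15.6 CPM with vehicle. All steroid libraries lay above all vehicle libraries of their genotype. Arntl rose by 0.51 ± 0.104 (adjusted p = 0.00149) in KO cells and by 0.57 ± 0.122 (adjusted p = 0.0047) in WT cells with corticosterone, on the log2 scale. With dexamethasone it rose by 0.55 ± 0.105 in KO cells (adjusted p = 0.000433) and by 0.71 ± 0.122 in WT cells (adjusted p = 0.000199). Clock ranged from 51.6 to 70.0 CPM in KO and from 50.4 to 65.0 CPM in WT steroid libraries, against 50.1 to 57.3 CPM in KO and 50.5 to 55.6 CPM in WT vehicle libraries. Clock was higher in every WT dexamethasone library (56.3 to 60.6 CPM) than in any WT vehicle library, and overlapped vehicle in the other steroid groups. Its log2 fold changes lay between 0.06 and 0.16 with adjusted p-values of 0.302 to 0.808, and the widest 95% interval among them ran from -0.10 to 0.39.

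Dexamethasone and corticosterone were also set against each other, at the doses of 100 and 500 nM, which differ, so the steroids themselves were not compared at a matched dose. None of the 10 clock genes was called in KO cells or WT cells by edgeR or by DESeq2, where 0.322% of all genes were called in KO cells and 0.185% in WT cells. At an unadjusted p under 0.05, 2 clock genes passed in each genotype, where 990 of 14589 genes passed in KO cells and 541 in WT cells. Per1 was higher in every dexamethasone library than in any corticosterone library of its genotype, by 0.30 ± 0.09 in KO cells (adjusted p = 0.192) and by 0.37 ± 0.104 in WT cells (adjusted p = 0.315) on the log2 scale. With the library number as a block, both were called, with adjusted p-values of 0.00609 in KO cells and 0.00479 in WT cells. Groups that did not overlap were found for 1 clock gene in KO cells, Per1, against 5.7% of all genes, and for 2 in WT cells, Per1 and Nr1d2, against 9.86%. For Nr1d2 the WT log2 difference was -0.35 (95% interval -0.64 to -0.06).

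IL4, the cytokine that drives alternative macrophage activation, moved fewer clock genes. In KO cells 2 of 10 were called (1 higher, 1 lower), against 26.5% of all genes (14.5% higher, 12% lower). In WT cells 2 were called, both higher, against 30.1% of all genes (14.8% higher, 15.3% lower). The IL4 and vehicle libraries did not overlap for 2 clock genes in KO cells (26.8% of all genes) and 4 in WT cells (44.3%). These shares are near or below the background, and the median absolute log2 fold change of the clock genes was 0.18 in KO and 0.20 in WT cells, against 0.21 and 0.22 over all genes in KO and WT cells. Per1 stood at 26.4, 27.7 and 28.3 CPM with IL4 in KO cells and at 25.3, 27.2 and 22.0 CPM with IL4 in WT cells, and overlapped the vehicle ranges given above in both genotypes. Its log2 fold change was 0.06 (95% interval -0.15 to 0.27) in KO cells and -0.20 (-0.42 to 0.03) in WT cells. The WT value passed with the library number as a block (-0.19, adjusted p = 0.0428), as did that of Nr1d1 (-0.51, adjusted p = 0.0025), so that 4 clock genes were called there.

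Per2 rose with IL4 in WT cells, opposite to its direction with glucocorticoid. It stood at 6.12, 6.94 and 9.92 CPM with IL4 in KO cells and at 6.49, 7.32 and 6.81 CPM with IL4 in WT cells. All WT libraries with IL4 lay above the WT vehicle libraries, and in KO cells the groups overlapped. The log2 fold change was 0.44 ± 0.189 in KO cells (adjusted p = 0.0869), which passed without KO IL4 1 (0.58, adjusted p = 0.0383), and 0.56 ± 0.206 in WT cells (adjusted p = 0.0398). The WT call was lost without any 1 of the 3 WT IL4 libraries or without WT vehicle 1 or 3 (adjusted p of 0.0534 to 0.14), and without the 4 WT libraries numbered 1 (0.50, adjusted p = 0.17). Cry1 stood at 23.9, 20.6 and 23.2 CPM with IL4 in WT cells, above all WT vehicle libraries (0.31 ± 0.112, adjusted p = 0.0366). That call was lost without WT IL4 1 or 3 or WT vehicle 2 or 3 (adjusted p of 0.0849 to 0.151) and without the 4 WT libraries numbered 1 (0.33, adjusted p = 0.109). In KO cells the Cry1 value was 0.07 (95% interval -0.15 to 0.28).

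Dbp fell with IL4 in KO cells, to 6.54, 5.46 and 5.14 CPM, all below the KO vehicle libraries, with a log2 fold change of -0.60 ± 0.162 (adjusted p = 0.00776). Fitted on those 2 groups alone, the adjusted p was 0.0872. In WT cells Dbp stood at 7.33, 6.60 and 7.02 CPM with IL4, and the value was -0.25 (95% interval -0.60 to 0.10). Clock rose with IL4 in KO cells, with 64.7, 63.8 and 85.3 CPM, by 0.37 ± 0.109 on the log2 scale (adjusted p = 0.013). KO IL4 4 was the highest of all 27 libraries for Clock, and without it the value was 0.23 (adjusted p = 0.164). Without the 4 libraries high in Arg1 it was 0.33 (adjusted p = 0.0845), and fitted on the 2 groups alone 0.36 (adjusted p = 0.0662). Nr1d1 stood at 3.30, 3.36 and 5.83 CPM with IL4 in KO cells and at 7.57, 6.34 and 4.67 CPM with IL4 in WT cells. Its log2 fold change was -0.46 ± 0.204 in KO cells (adjusted p = 0.0972) and -0.49 ± 0.209 in WT cells (adjusted p = 0.0794). The KO value passed without KO IL4 4 (-0.78, adjusted p = 0.0102) and with the block (-0.49, adjusted p = 0.0063), and the WT value passed without WT IL4 1 (-0.65, adjusted p = 0.0395).

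Few clock genes passed the test between KO and WT cells. With vehicle, 1 of 10 was called, Nr1d1 (lower in KO), against 18.8% of all genes, and with IL4, 1 was called, Clock (higher in KO), against 12.4%. With corticosterone 0 were called by edgeR or DESeq2, against 14.4% of all genes, and 3 of 10 passed an unadjusted p under 0.05, where 3746 of 14589 genes passed. With dexamethasone 0 were called by either tool, against 17.2%, and 1 passed an unadjusted p under 0.05, where 4171 of 14589 genes passed. KO and WT libraries did not overlap for 2 clock genes with vehicle (25.9% of all genes), 5 with IL4 (28.4%), 1 with corticosterone (29.6%) and 1 with dexamethasone (27.8%). The 5 with IL4 were Cry2, Nr1d2 and Dbp, lower in KO, and Arntl and Clock, higher in KO. Of these only Clock was called, and the Nr1d1 libraries overlapped there. Nr1d1 was lower in KO than in WT vehicle cells by the values given above, with no overlap and a log2 difference of -0.60 ± 0.193 (adjusted p = 0.0297). That call was lost without KO vehicle 2 or 4 or WT vehicle 1 or 2 (adjusted p of 0.053 to 0.135), without the 4 libraries high in Arg1 (-0.55, adjusted p = 0.166) and without the 4 WT libraries numbered 1 (-0.52, adjusted p = 0.0832). With IL4, the Nr1d1 difference was -0.57 ± 0.217 (adjusted p = 0.0865), and it passed without KO IL4 4 (-0.89, adjusted p = 0.0166) or WT IL4 3 (-0.78, adjusted p = 0.0284). Stromal and neutrophil markers were also lower in KO libraries, and their part in these differences was not tested.

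Clock with IL4 was higher in KO than in WT cells, where it stood at 59.8, 55.0 and 51.6 CPM, by 0.36 ± 0.117 on the log2 scale (adjusted p = 0.0443). This call was lost without KO IL4 4 (0.22, adjusted p = 0.312) and without any 1 of the 3 WT IL4 libraries (adjusted p of 0.0977 to 0.204). It was also lost without the 4 libraries high in Arg1 (0.33, adjusted p = 0.0798) and when only the 2 groups compared were fitted (0.34, adjusted p = 0.239). Nr1d2 with dexamethasone was higher in every KO than in every WT library, by 0.35 ± 0.134, and missed the threshold (adjusted p = 0.0729), but passed without KO dexamethasone 2 (0.42, adjusted p = 0.0397). The question of whether a response depended on the genotype was put to the difference of the responses, KO minus WT. None of the 10 clock genes was called by edgeR or DESeq2 for IL4, corticosterone or dexamethasone, where 0.0274%, 0.0206% and 0.185% of all genes were called for those treatments. At an unadjusted p under 0.05, 0 clock genes passed for IL4, 2 for corticosterone and 1 for dexamethasone, where 1323, 926 and 880 of 14589 genes passed for those treatments. The largest of these was Nr1d2 with dexamethasone, which fell less in KO cells, with a difference of 0.50 ± 0.184 (95% interval 0.12 to 0.88, adjusted p = 0.504). With the library number as a block this difference was called (0.50, adjusted p = 0.0271). However, KO dexamethasone and KO vehicle libraries of the same number did not all pair (correlation of deviations from 0.005). For Per1 the differences were 0.10 (-0.19 to 0.39) with corticosterone and 0.04 (-0.25 to 0.33) with dexamethasone.

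Other factors that share the clock's binding sites were followed from a list of 11, of which 8 were tested, while Hlf and Rorb were among those not tested and stayed at 0.311 CPM or less in every library. Tef, a PAR bZIP activator related to Dbp, fell with glucocorticoid in all 4 comparisons, as Dbp did. In KO cells Tef stood at 39.8, 31.3, 32.3 and 41.0 CPM with corticosterone and at 36.2, 29.8, 27.5 and 36.9 CPM with dexamethasone, against 52.4, 52.6, 58.0 and 60.2 CPM with vehicle. In WT cells it stood at 23.4, 25.6 and 27.5 CPM with corticosterone and at 21.1, 23.4 and 25.1 CPM with dexamethasone, against 45.9, 51.4 and 52.3 CPM with vehicle. The log2 fold changes in KO cells were -0.63 ± 0.107 with corticosterone (adjusted p = 0.000238) and -0.78 ± 0.107 with dexamethasone (adjusted p = 9.54e-06). In WT cells they were -0.97 ± 0.125 with corticosterone (adjusted p = 1.19e-05) and -1.10 ± 0.126 with dexamethasone (adjusted p = 8.56e-07). Tef was higher in KO than in WT cells with corticosterone (0.50 ± 0.118, adjusted p = 0.0045) and with dexamethasone (0.49 ± 0.12, adjusted p = 0.00559, and 0.47 with an adjusted p of 0.0539 without the 4 libraries high in Arg1). The difference of the Tef responses, KO minus WT, was 0.34 with corticosterone (adjusted p = 0.776) and 0.33 with dexamethasone (adjusted p = 0.874), so the genotypes were not shown to respond differently.

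IL4 raised 2 of the 8 tested genes of that list and lowered 0 in each genotype, and both encode repressors. Over all genes, 14.5% were called higher with IL4 in KO cells and 14.8% in WT cells. Nfil3, which competes with the PAR bZIP factors at D-boxes, stood at 73.0, 61.1 and 68.7 CPM with IL4 in KO cells, against 11.7, 33.4, 27.4 and 15.1 CPM with vehicle. In WT cells it stood at 59.1, 66.3 and 64.9 CPM with IL4, against 12.9, 9.96 and 9.26 CPM with vehicle. Bhlhe40, which encodes the E-box repressor DEC1, stood at 337, 362 and 412 CPM with IL4 in KO cells, against 53.6, 154, 126 and 82.7 CPM with vehicle. In WT cells Bhlhe40 stood at 342, 327 and 293 CPM with IL4, against 63.7, 41.3 and 31.5 CPM with vehicle. Every IL4 library was above every vehicle library for both genes. Nfil3 rose by 1.62 ± 0.25 on the log2 scale in KO cells (adjusted p = 5.44e-05) and by 2.57 ± 0.289 in WT cells (adjusted p = 5e-07). Bhlhe40 rose by 1.83 ± 0.318 in KO cells (adjusted p = 0.000233) and by 2.82 ± 0.366 in WT cells (adjusted p = 4.11e-06). The IL4 responses of the genotypes were not shown to differ, with adjusted p-values of 0.443 for Nfil3 and 0.542 for Bhlhe40.

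KO vehicle 2 and 3, which are among the 4 libraries high in Arg1, were also the highest KO vehicle libraries for Nfil3 and Bhlhe40. Both genes were called higher in KO than in WT vehicle cells, Nfil3 by 1.04 ± 0.27 (adjusted p = 0.00824) and Bhlhe40 by 1.20 ± 0.333 (adjusted p = 0.0139). Leaving out KO vehicle 2, WT vehicle 2 or WT vehicle 3 alone ended the Bhlhe40 call (0.94 to 1.14, adjusted p of 0.0573 to 0.0806). Without the 4 libraries the values were 0.33 for Nfil3 (adjusted p = 0.248) and 0.58 for Bhlhe40 (adjusted p = 0.21). Both were also called lower with corticosterone in KO cells, Nfil3 at -0.90 (adjusted p = 0.0175) and Bhlhe40 at -1.08 (adjusted p = 0.0214). Without KO vehicle 2 or 3 alone neither was called, nor was Nfil3 without KO corticosterone 4 or Bhlhe40 without KO corticosterone 1 or 3 (adjusted p of 0.0516 to 0.0958). Without the 4 libraries the values were -0.20 for Nfil3 (adjusted p = 0.635) and -0.48 for Bhlhe40 (adjusted p = 0.41). In WT cells the corticosterone value of Nfil3 was 0.61 and missed the threshold (adjusted p = 0.291). It passed with only the groups compared (0.60, adjusted p = 0.046) and without the 4 libraries (0.59, adjusted p = 0.0186). The difference of the Nfil3 corticosterone responses, KO minus WT, was -1.505 (adjusted p = 0.186). DESeq2 called that difference (-1.501, adjusted p = 0.015), and both fits include KO vehicle 2 and 3. In WT cells Nfil3 was higher with dexamethasone than with vehicle, by 1.03 ± 0.286 (adjusted p = 0.0169), and without WT dexamethasone 1 the value was 0.82 (adjusted p = 0.0913). That call was also lost without WT vehicle 2 (0.98, adjusted p = 0.0642) or WT vehicle 3 (0.94, adjusted p = 0.0768). Bhlhe41, which encodes the related repressor DEC2, fell with dexamethasone in WT cells by 0.51 ± 0.123 (adjusted p = 0.00588), and without WT dexamethasone 3 the value was -0.41 (adjusted p = 0.0514). In KO cells its dexamethasone value was -0.30 and missed the threshold (adjusted p = 0.0523). It passed with DESeq2 (adjusted p = 0.035) and with the replicate block (adjusted p = 0.00277), although KO dexamethasone and vehicle libraries did not all pair by number. The WT corticosterone value of Bhlhe41 was -0.29 (adjusted p = 0.205), and it passed with the block (adjusted p = 0.0178).

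**Figure D3:**
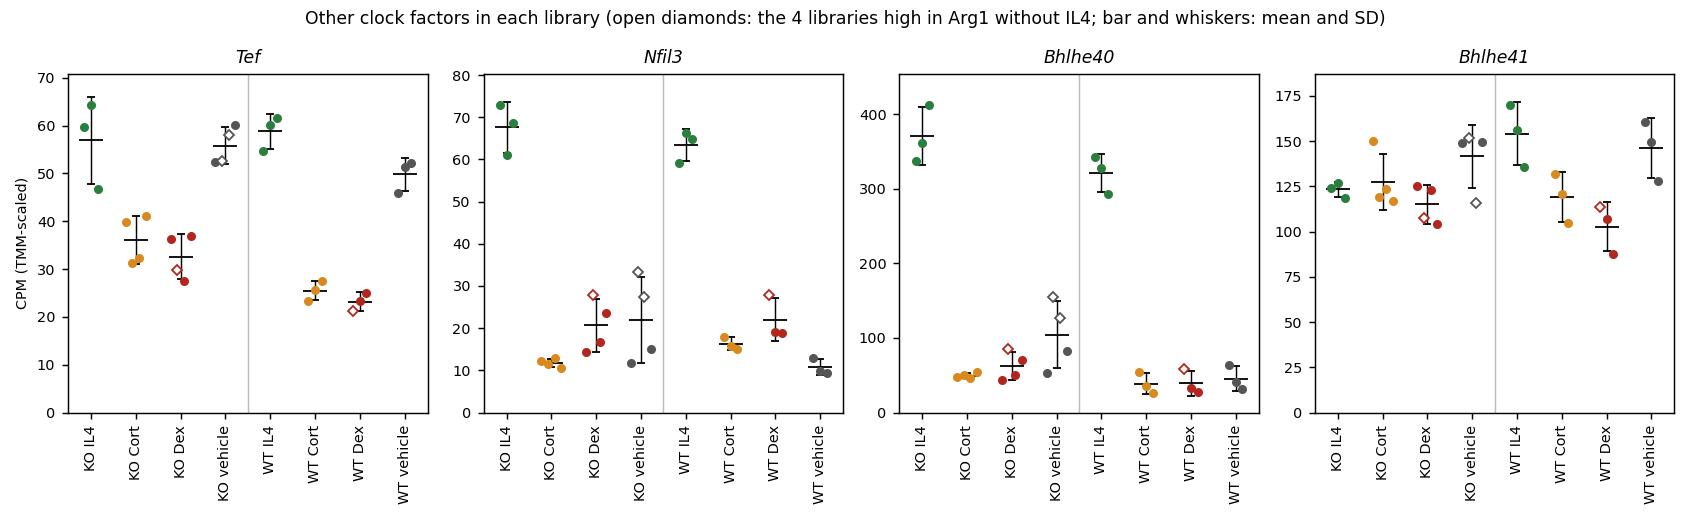
Level (y axis, CPM of the TMM-scaled library) of Tef, Nfil3, Bhlhe40 and Bhlhe41 in each library, by group (x axis; KO left, WT right), with group mean and SD. Open diamonds are the 4 libraries high in Arg1 without IL4. Nfil3 reaches 59.1 CPM or more in every IL4 library and 33.4 CPM at most in all others.

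Enzymes and partners that act on clock proteins were followed from a list of 10, all tested. IL4 raised 3 and lowered 2 of them in each genotype, against 14.5% of all genes higher and 12% lower in KO cells and 14.8% higher and 15.3% lower in WT cells. By these calls the lowered genes were not the same, since Fbxw11 was called in WT cells (-0.18, adjusted p = 0.0308) but not in KO cells (-0.14, adjusted p = 0.0804). The KO value of Fbxw11 passed with the replicate block (-0.15, adjusted p = 0.0216) and without the 4 libraries high in Arg1 (-0.23, adjusted p = 0.0166). The calls therefore do not show that the genotypes differ for this gene. Without the filter on low counts, the WT calls of Btrc (adjusted p = 0.0722) and Fbxw11 (0.0995) and the KO call of Btrc (0.0643) were lost. Fitted on the 2 WT groups alone, Fbxw11 was also lost (0.0546). Fitted on the 2 KO groups alone, 4 of the 5 KO calls were lost: Csnk1d (adjusted p = 0.101), Btrc (0.137), Timeless (0.12) and Tipin (0.0511). The Timeless call was also lost without the 4 libraries high in Arg1 (adjusted p = 0.102). Csnk1d, a casein kinase that phosphorylates period proteins, rose by 0.22 ± 0.047 on the log2 scale in KO cells (adjusted p = 0.00108) and by 0.28 ± 0.05 in WT cells (adjusted p = 0.000149). Gsk3b, another kinase of clock proteins, rose by 0.34 ± 0.067 in KO cells (adjusted p = 0.000654) and by 0.25 ± 0.072 in WT cells (adjusted p = 0.0104), and without WT vehicle 1 the WT value was 0.19 (adjusted p = 0.0723). The list's median log2 fold change with IL4 was nevertheless near 0, at -0.01 in both KO and WT cells, against 0.01 and -0.01 over all genes in KO and WT cells. Corticosterone changed 0 of the 10 in KO or WT cells. Dexamethasone raised 2 and lowered 1 in KO cells (9.1% of all genes higher, 9.29% lower) and lowered 1 in WT cells (6.03% of all genes lower). The lowered genes were Fbxw11 in KO cells (adjusted p = 0.0247) and Tipin in WT cells (adjusted p = 0.0278). Both calls were lost without the filter on low counts (adjusted p of 0.117 for Fbxw11 and 0.0503 for Tipin). They were also lost when only the groups compared were fitted (0.063 for Fbxw11 and 0.0663 for Tipin).

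Of 5 genes known as targets of the clock in other tissues, IL4 raised 2 and lowered 1 in each genotype, where 26.5% of all genes were called in KO cells and 30.1% in WT cells. Klf10, a transcription factor gene, rose by 0.55 ± 0.071 on the log2 scale in KO cells (adjusted p = 5.45e-06) and by 0.44 ± 0.077 in WT cells (adjusted p = 9.25e-05). Por, which encodes the electron donor of cytochrome P450 enzymes, fell by 0.70 ± 0.106 in KO cells (adjusted p = 3.45e-05) and by 0.77 ± 0.112 in WT cells (adjusted p = 1.05e-05). Dexamethasone raised 3 of the 5 in KO cells, against 9.1% of all genes, and 2 in WT cells, against 7.66%. Without the 4 libraries high in Arg1 the KO count was 1, since Usp2 (0.22, adjusted p = 0.18) and Wee1 (0.31, adjusted p = 0.0906) were no longer called. The KO call of Usp2 was also lost without the filter on low counts (adjusted p = 0.0744). Nampt, which encodes the rate-limiting enzyme of NAD salvage, rose with dexamethasone by 0.29 ± 0.062 in KO cells (adjusted p = 0.00129) and by 0.42 ± 0.071 in WT cells (adjusted p = 0.000158). With IL4 its KO call (0.27, adjusted p = 0.00434) was lost when only the groups compared were fitted (0.26, adjusted p = 0.0683).

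Likeness of pattern was measured as Pearson's r over the 8 group means of log2 CPM, among 9657 genes, for the 3 clock genes with the widest range of group means. For Per1 the nearest were Fkbp5 and Man2a1 (r of 0.998 each). Fkbp5 encodes a co-chaperone of the glucocorticoid receptor and is a standard glucocorticoid target. It rose by 2.88 with corticosterone and 3.51 with dexamethasone on the log2 scale in KO cells, and by 3.13 with corticosterone and 3.75 with dexamethasone in WT cells. For Per2 the nearest were Tor3a (0.978), Mtx1 (0.976) and Syncrip (0.976), and for Dbp they were Grk3 (0.982), Mars (0.981) and Tspan4 (0.977). Among the clock genes themselves, r with Per1 was 0.958 for Arntl and -0.969 for Per3. These are descriptions over 8 points that share their libraries.

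WT libraries that carry the same number moved together. Nr1d1 was highest in library 1 and lowest in library 3 in all 4 WT groups, which is also the order of the summed stromal and neutrophil markers. Arntl was highest in library 3 in all 4 groups, while Per1 and Nr1d2 were highest in library 2. Cry1 was lowest in library 2 in all 4. What the number stands for, and what part the stromal and neutrophil transcripts have in these differences, was not tested.

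**Figure D4:**
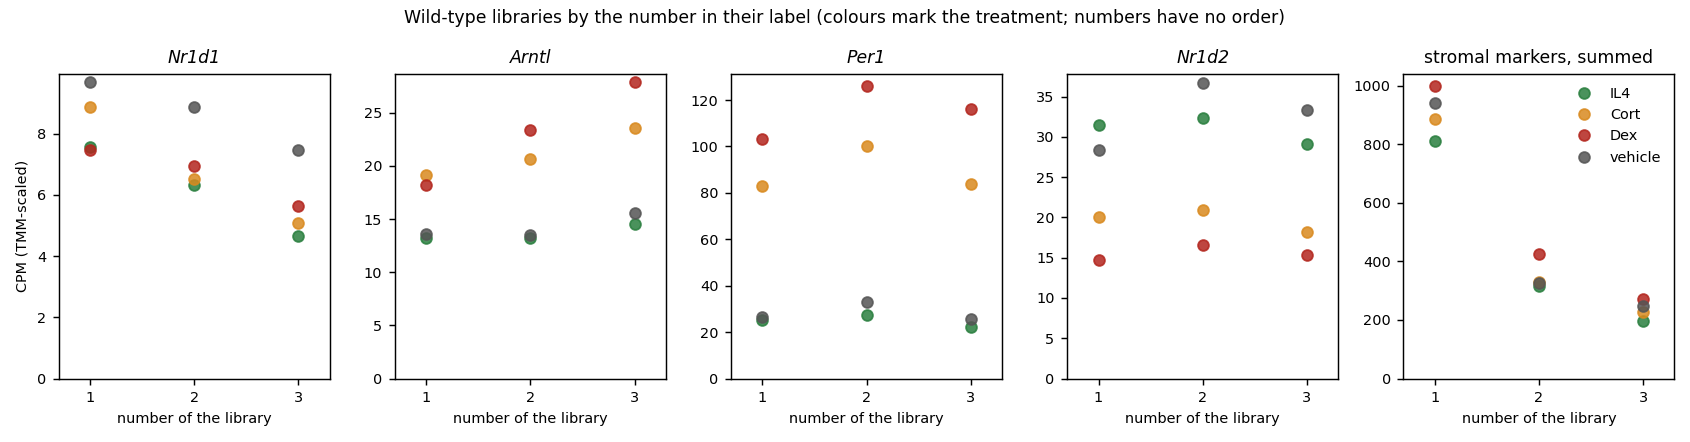
Level (y axis, CPM of the TMM-scaled library) of 4 clock genes and the summed stromal markers in the 12 WT libraries, by the number in their label (x axis) and treatment (colour). Nr1d1 and the stromal sum are highest in library 1 and lowest in library 3 under every treatment.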

How the data were processed

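RNA of 27 macrophage libraries was sequenced as 50 bp read pairs with a directional poly(A) kit, per the labels' protocols. The deposited table holds raw read counts per gene. The submitters' processing notes name fastp 0.23.2, STAR 2.7.0, featureCounts and edgeR 3.38.4 and the build mm10, without roles. Counting rules for strand and multiple hits are not given in the sources used here.

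Counts were tested with edgeR 4.0.16 (R 4.3.3): filterByExpr with a minimum count of 10, TMM scaling, 1 quasi-likelihood fit over all 8 groups and Benjamini-Hochberg adjustment over 14589 genes. Errors of fold changes are standard errors (the fold change over the root of F), intervals are 95%, and errors of levels are SDs. Counting error limits the lowest genes most.

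The 10 clock genes and the other gene lists were chosen with earlier results of these data known. Every clock gene is named; other genes are those of the lists, and the 3 genes most like each of the 3 clock genes with the widest range, among genes of at least 5 CPM. Some genes that these rules name are not reported here.

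Libraries of the same number paired in the WT comparisons (correlation of deviations 0.244 to 0.713 against vehicle), in KO IL4 and corticosterone against vehicle (from 0.112) and in dexamethasone against corticosterone, but not in KO dexamethasone against vehicle (from 0.005) or KO against WT. What a number marks is not stated in the labels.

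Alternatives were RLE size factors, no filter, edgeR's newer fit, only the groups compared, a replicate block, DESeq2 1.42.0, each library left out, and the 4 libraries high in Arg1 left out. Leaving out the 4 WT libraries numbered 1 was added after seeing the data. The fit was checked on simulated counts.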

Additional observations from a re-analysis of the deposited data

Results flagged for a closer look

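Nr1d1 in KO dexamethasone library 4 stood at 7.96 CPM, apart from the other 3 libraries of that group at 5.77 to 5.88 CPM. Its gap to the nearest library was 0.95 of the group's range. It was the only such case among 39 sets of 4 values examined, each of 1 gene in 1 group, and chance alone flags about 1 set in 20.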

How the results depend on the processing

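No direction was reversed under any alternative for any clock gene that was called. With DESeq2 and with edgeR's newer fit, every call and non-call of the 10 clock genes in the 15 comparisons was the same. The glucocorticoid counts stayed within 1.5 times under every alternative, and the calls of Per1, Arntl and Dbp with either steroid were kept under all. The IL4 and genotype counts did not. The 2 clock genes called for IL4 in WT cells became 0 without the filter on low counts, 4 with the replicate block and 0 without the 4 WT libraries numbered 1. The 2 called for IL4 in KO cells became 0 when only the groups compared were fitted and 1 without the 4 libraries high in Arg1. The 1 called between KO and WT with vehicle became 0 without either of those sets of libraries. The 1 called with IL4 became 0 with RLE size factors, without the filter, with only the groups compared, and without either set. With the replicate block, 1 clock gene was called for dexamethasone against corticosterone in KO cells, 1 in WT cells, and 1 (Nr1d2, 0.50, adjusted p = 0.0271) for the genotype difference of the dexamethasone response. The block also added Cry2 for dexamethasone in KO cells (-0.28, adjusted p = 0.0316). Between KO and WT with IL4 it added Nr1d1 (-0.74, adjusted p = 0.00769) and lost Clock (0.27, adjusted p = 0.0922), and it changed no other call than these and those given in the report. For treatments the block was the library number within a genotype. For KO against WT it was the number alone, which joined KO and WT libraries of the same number. Those libraries did not pair (correlation of deviations -0.128 to -0.113 with IL4), so that block has no basis in the data. KO dexamethasone and KO vehicle libraries of the same number did not all pair either (0.005 to 0.363). This limits the block's calls of Cry2 for dexamethasone in KO cells and of Nr1d2 for the genotype difference of the dexamethasone response. Leaving out 1 library at a time gave 0 to 1 called for IL4 in WT cells, 2 to 3 in KO cells, 6 to 7 for corticosterone in each genotype, 7 to 8 for dexamethasone in KO cells and 6 to 7 in WT cells. Between KO and WT it gave 0 to 1 with vehicle, IL4 or dexamethasone and 0 with corticosterone. Over all genes, the replicate block gave 1790 called for corticosterone in WT cells against 866 without it, 3225 against 1996 for dexamethasone in WT cells, 2974 against 1762 for corticosterone in KO cells and 4056 against 2684 for dexamethasone in KO cells. Without the 4 libraries high in Arg1 the KO counts were 941 for corticosterone and 1789 for dexamethasone. With only the groups compared they were 1329 for dexamethasone in WT cells and 1745 against 3873 for IL4 in KO cells. Without the WT libraries numbered 1 the corticosterone count in WT cells was 486. Between KO and WT cells, the count with vehicle (2738) was 1641 with only the groups compared and 1680 without the libraries high in Arg1. That with IL4 (1802) was 616 with only the groups compared and 1016 without the WT libraries numbered 1. Without those WT libraries it was 1270 with corticosterone (2102), and without the libraries high in Arg1 it was 1378 with dexamethasone (2512). Dexamethasone against corticosterone gave 47 genes in KO cells (274 with the block, 165 with DESeq2) and 27 in WT cells (137 and 57). The genotype difference of the response gave 4 genes for IL4 (149 and 78), 3 for corticosterone (110 and 80) and 27 for dexamethasone (214 and 81). The causes of these changes were not tested. Per3, Per2, Dbp and Nr1d1 have the fewest counts, so small changes in them are the least detectable.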
